A study of Mus musculus with 24 samples.

Results

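The regulators of G protein signaling (RGS) examined here were 10 genes, *Rgs2*, *Rgs3*, *Rgs4*, *Rgs5*, *Rgs7*, *Rgs8*, *Rgs10*, *Rgs16*, *Rgs17* and *Rgs19*, out of 27398 gene names on the array. They were found by their names in the gene name column of the array files, which gave 21 of 41174 probes. Expression was profiled in L4 and L5 dorsal root ganglia (DRGs), the ganglia that hold the cell bodies of sensory neurons, of adult male C57BL/6J mice. Wildtype (WT) mice were compared with *Nfil3* knockout (KO) mice, which carry a germline deletion made by crossing a floxed *Nfil3* line with mice expressing Cre recombinase in germ cells and so lack the transcriptional repressor NFIL3 in all cells. The sciatic nerve was cut on the left side and its ends were sutured together, DRGs were taken at day 2 or day 5 post-lesion, and control DRGs came from the non-injured side of lesioned mice. The side is stated by the paper, while the sample titles give the controls as day 0. This gave 6 groups of 4 samples, WT control, WT day 2, WT day 5, KO control, KO day 2 and KO day 5. Nothing in the labels ties samples to animals or states whether DRGs were pooled, so the p-values measure the spread between these samples only.

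RGS proteins switch off signaling by G protein-coupled receptors. An activated receptor loads the G alpha subunit with GTP, and an RGS protein speeds up the hydrolysis of that GTP, which ends the signal of both G alpha and the freed G beta-gamma pair. In sensory neurons such receptors include those for opioids, cannabinoids, serotonin and prostaglandins. Those that act through Gi/o and Gq tune calcium channels, GIRK potassium channels and phospholipase C beta. The R4 subfamily holds small proteins with little beside the RGS domain and is represented by *Rgs2*, *Rgs3*, *Rgs4*, *Rgs5*, *Rgs8* and *Rgs16*. *Rgs7* belongs to the R7 subfamily, whose proteins form complexes with the G beta 5 subunit. *Rgs10* belongs to the R12 subfamily, and *Rgs17* and *Rgs19* to the RZ subfamily.

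The arrays carry 60-base oligonucleotides as probes. Several members are read in part through the stretch that makes them a family, the sequence coding for the conserved RGS domain. The next 3 oligos, of *Rgs4* (chr1:171673944-171674003), *Rgs3* (chr4:62363141-62363200) and *Rgs8* (chr1:155539919-155539978; all mm9, the build of the array annotation), are shown because they sample this family sequence, and capitals mark bases that equal those of the *Rgs4* oligo in the best ungapped alignment.
Rgs4: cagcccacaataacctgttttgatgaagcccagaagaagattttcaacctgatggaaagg
Rgs3: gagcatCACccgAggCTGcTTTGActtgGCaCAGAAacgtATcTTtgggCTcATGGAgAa
Rgs8: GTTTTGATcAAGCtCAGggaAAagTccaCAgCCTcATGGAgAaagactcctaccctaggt
The *Rgs3* oligo shared 31 of 59 aligned bases with the *Rgs4* oligo and the *Rgs8* oligo 29 of 44. The longest unbroken run shared between oligos of different members was 11 bases, between *Rgs3* and *Rgs8*, so that no pair of oligos was near-identical. Hybridization to other RGS transcripts was not tested.

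The 24 samples came from 12 arrays on 3 slides, each array carrying 1 sample in each dye. Between 54.6 and 72.4% of probes were well above background per sample and no spot was saturated. The brightest probe of each member, which stands for the gene below, was well above background in all 24 samples, against 53.2% of all genes. *Nfil3* lay between 8.44 and 11.08 on the log2 intensity scale in the 12 WT samples and between 2.82 and 7.59 in the 12 KO samples. In the KO it was well above background in 1 of 4 control, 2 of 4 day 2 and 2 of 4 day 5 samples, and whether its probe lies in the deleted part is not given in the sources used here. The highest KO value was that of KO control replicate 4, for which 1 label field gives day 5 and the title and source name give day 0. KO day 2 replicate 3 stood apart from the other lesion samples. Over the probes that changed at day 2 it showed 71.9% of the mean lesion change, against 91 to 118% in the other day 2 samples. Day 5 samples, taken over the probes that changed at day 5, showed 87.4 to 106%. All 10 neuronal markers tested were well above background in all 24 samples. Levels of different probes are not compared, since they depend on the oligo.

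At day 5 post-lesion 6 of the 10 RGS genes had changed, with *Rgs10*, *Rgs8*, *Rgs5* and *Rgs7* lower and *Rgs19* and *Rgs17* higher than in control (limma, mean of WT and KO, Benjamini-Hochberg adjusted over all probes). At day 2, 4 had changed, *Rgs10*, *Rgs8* and *Rgs7* being lower and *Rgs19* higher. Among all genes 23.3% passed at day 5 (10.2% higher and 13% lower) and 22.3% at day 2 (9.39% higher and 12.9% lower). All shares over all genes include genes near background, whereas all 10 members were well above it in all 24 samples. The median difference of the 10 genes was -0.29 at day 5 and -0.07 at day 2 on the log2 scale, beside -0.03 and -0.02 over all genes. When a gene was counted if any of its probes passed, a rule added after the values were seen, *Rgs3* joined at both days and *Rgs4* at day 5. That gave 5 of 10 at day 2 and 8 of 10 at day 5, against 25.4 and 25.8% of all genes.

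**Figure D1:**
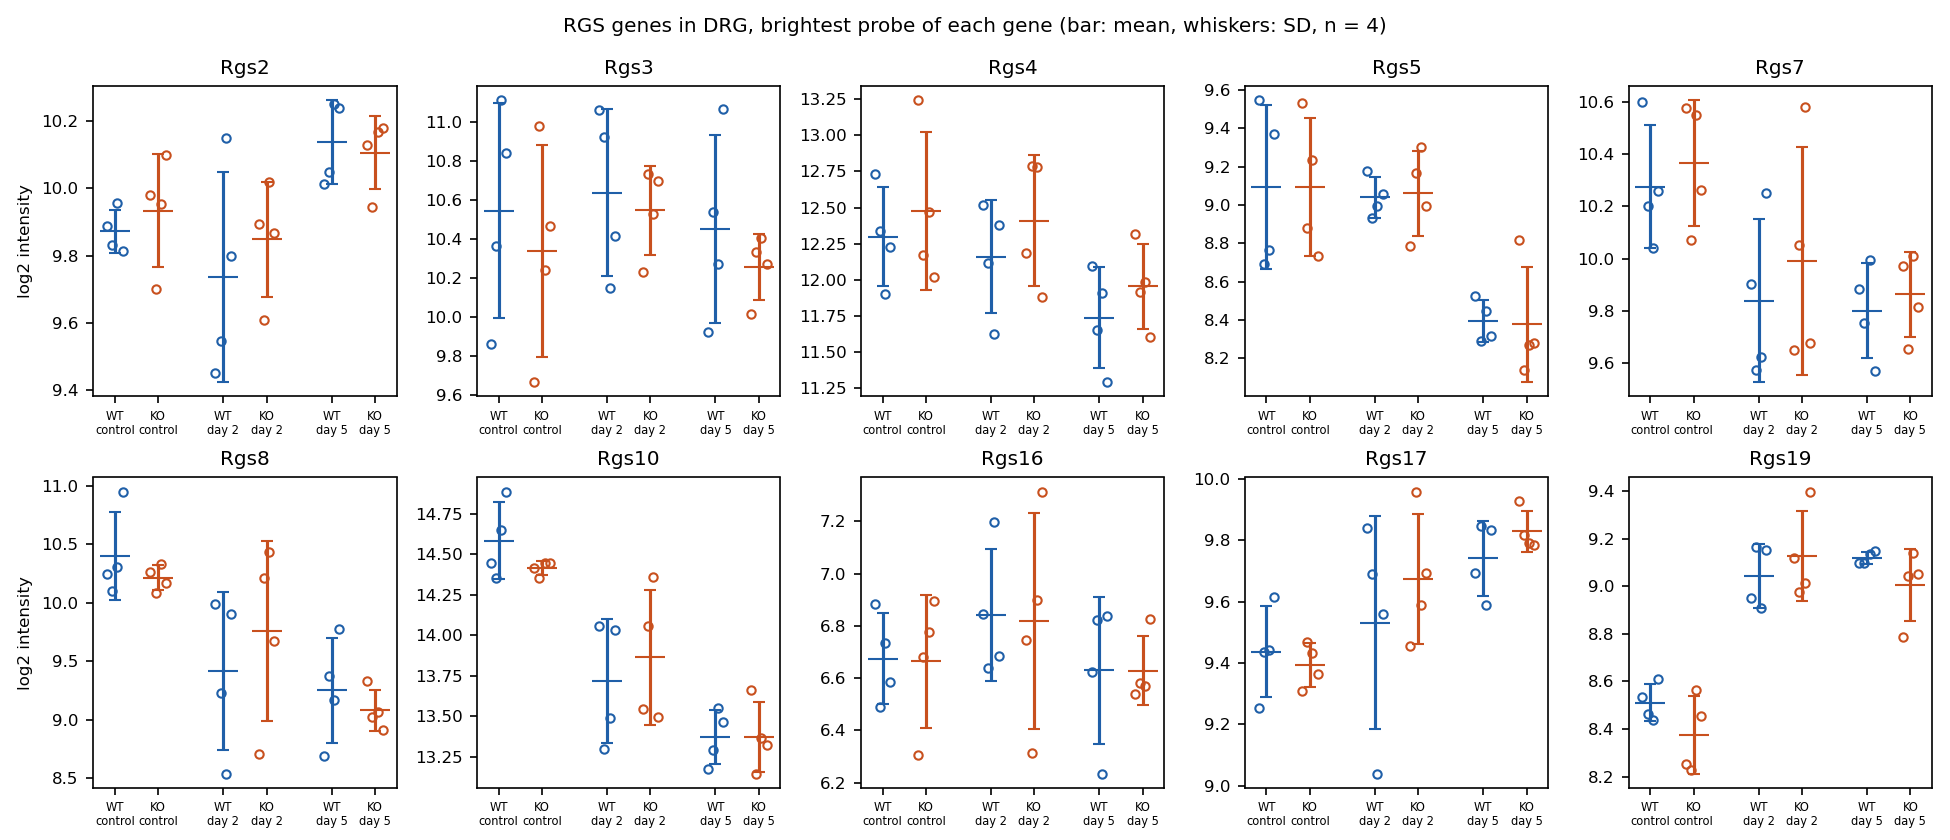
Log2 intensity of the brightest probe of each RGS gene in the 24 samples, WT in blue and KO in orange, with the mean and SD of each group of 4. Rgs19 lies above the controls in all lesion samples, Rgs10, Rgs8 and Rgs7 lie below all controls at day 5, and the scale differs between panels. The share of all genes that separate in this way was not counted.

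*Rgs10*, a small RGS protein that acts on Gi and is found in neurons and in macrophage lineage cells, showed the most significant fall. In control DRGs its log2 intensity was 14.45, 14.35, 14.65 and 14.89 in WT and 14.42, 14.36, 14.45 and 14.45 in KO. At day 2 it was 14.06, 13.30, 13.49 and 14.03 in WT and 13.55, 14.06, 14.36 and 13.49 in KO, and at day 5 it was 13.18, 13.29, 13.55 and 13.47 in WT and 13.66, 13.15, 13.36 and 13.32 in KO. All day 5 samples lay below all controls, while at day 2 only KO day 2 replicate 3 reached the control range. The share of all genes without overlap between lesion and control samples was not counted. Such separation, here and in the members below, is therefore not read as particular to them. The difference to control was -0.71 ± 0.14 (SE) at day 2 (adjusted p = 0.000687) and -1.13 ± 0.14 at day 5 (adjusted p = 3.23e-06), a 2.18-fold lower level at day 5. Without KO day 2 replicate 3 the day 2 difference was -0.79.

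*Rgs8*, an R4 protein known from neurons that speeds the gating of GIRK channels, fell by a similar factor. Controls read 10.25, 10.10, 10.31 and 10.95 in WT and 10.26, 10.09, 10.34 and 10.17 in KO. Day 2 samples read 9.99, 9.23, 8.54 and 9.91 in WT and 8.71, 10.21, 10.43 and 9.67 in KO, and day 5 samples 8.69, 9.37, 9.17 and 9.77 in WT and 9.33, 9.02, 9.07 and 8.91 in KO. At day 5 no sample overlapped with control, whereas at day 2 KO replicates 2 and 3 were at control levels. The difference was -0.72 ± 0.24 at day 2 (adjusted p = 0.034) and -1.14 ± 0.24 at day 5 (adjusted p = 0.00114), or 2.21-fold lower. The domain oligo printed above gave -0.65 and -0.97 (adjusted p = 0.0164 and 0.000607).

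*Rgs7*, the R7 member, had a smaller decrease. It ranged from 10.04 to 10.60 in control, from 9.58 to 10.58 at day 2 and from 9.57 to 10.01 at day 5, so that control and day 5 did not overlap. The difference was -0.41 ± 0.14 at day 2 (adjusted p = 0.0394) and -0.49 ± 0.14 at day 5 (adjusted p = 0.0124). *Rgs7* and *Rgs8* passed at day 2 by a small margin. With slide as a block *Rgs8* was at -0.65 at day 2 (limma adjusted p = 0.0592). Without the 4 arrays that carried a control and a lesion sample together, which held 4 of the 8 controls, *Rgs8* was at -0.85 (adjusted p = 0.114). In either fit 3 genes passed. The *Rgs7* call at day 2 was lost in 10 and the *Rgs8* call in 7 of the 24 fits that left out 1 sample, and the count of 4 fell to 2 without WT control replicate 4, WT day 2 replicate 2, KO control replicate 1, KO control replicate 3, KO day 2 replicate 1 or KO day 2 replicate 4.

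*Rgs5*, an R4 protein best known as a marker of pericytes, differed from these genes in timing. Controls read 9.55, 8.69, 8.77 and 9.37 in WT and 9.53, 8.88, 9.24 and 8.73 in KO. Day 2 samples read 9.18, 8.93, 8.99 and 9.06 in WT and 8.78, 9.17, 9.30 and 8.99 in KO, and day 5 samples 8.53, 8.29, 8.45 and 8.32 in WT and 8.82, 8.14, 8.27 and 8.28 in KO. Day 2 lay within the control range, and 7 of the 8 day 5 samples lay below every control. The difference was -0.04 ± 0.14 at day 2 (adjusted p = 0.878) and -0.71 ± 0.14 at day 5 (adjusted p = 0.00071). *Rgs5* was the 1 member whose day 5 and day 2 levels differed by the brightest probe (-0.66 ± 0.14, adjusted p = 0.00918), a change that 3.33% of all genes showed. Its other probe gave -0.55 at day 5 (adjusted p = 0.00871). Among 7 pericyte and smooth muscle markers, *Abcc9* and *Acta2* were higher and *Pdgfrb* lower at day 5. The *Abcc9* probe was dim, being well above background in 5 of 8 control and 8 of 8 day 5 samples. It passed narrowly (limma adjusted p = 0.0488). The summed intensity of the 7, to which the brightest probe, that of *Acta2*, adds most, ranged from 4189 to 5651 in control and from 5337 to 6942 at day 5. In a bulk sample fewer cells of a type and less RNA per cell cannot be told apart.

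*Rgs4*, an R4 protein abundant in neurons that acts on Gi/o and Gq, lies 49.5 kb from *Rgs5* on chromosome 1 by the positions of their brightest probes. By its brightest probe the difference at day 5 was -0.54 ± 0.20 (adjusted p = 0.0539), which missed the threshold, although it passed under 17 of 38 alternatives (adjusted p from 0.00491 to 0.0464), among them slide as a block and the average over its probes. The domain oligo printed above ranged from 10.67 to 11.15 in control, from 10.47 to 11.40 at day 2 and from 10.17 to 10.66 at day 5, with no overlap between control and day 5. For this oligo the difference was 0.05 ± 0.12 at day 2 (adjusted p = 0.847), -0.56 ± 0.12 at day 5 (adjusted p = 0.0017) and -0.60 ± 0.12 between day 5 and day 2 (adjusted p = 0.00621).

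*Rgs19*, an RZ protein that acts on Gi and binds the scaffold protein GIPC, was the most significant of all members and the 1 member that was higher at both days. Controls read 8.54, 8.46, 8.44 and 8.61 in WT and 8.25, 8.23, 8.57 and 8.45 in KO. Day 2 samples read 8.95, 9.16, 8.91 and 9.15 in WT and 9.12, 8.98, 9.01 and 9.40 in KO, and day 5 samples 9.10, 9.10, 9.14 and 9.15 in WT and 8.79, 9.04, 9.14 and 9.05 in KO. All 16 lesion samples lay above all 8 controls, KO day 2 replicate 3 included, though how many of all genes separate in this way was not counted. The difference was 0.64 ± 0.07 at day 2 (adjusted p = 2.34e-06) and 0.62 ± 0.07 at day 5 (adjusted p = 2.75e-06), a 1.56-fold and a 1.54-fold rise. The second probe gave 0.55 and 0.61 (adjusted p = 4.19e-06 and 7.9e-07). *Rgs17*, the other RZ member, ranged from 9.25 to 9.62 in control, from 9.04 to 9.96 at day 2 and from 9.59 to 9.93 at day 5. It was higher at day 5 by 0.37 ± 0.10 (adjusted p = 0.00748) but not past the threshold at day 2 (0.19 ± 0.10, adjusted p = 0.192), and its second probe gave 0.19 ± 0.09 at day 5 (adjusted p = 0.143).

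*Rgs3*, an R4 gene with long and short isoforms, gave different answers by probe. The brightest oligo (chr4:62350689-62350748) ranged from 9.67 to 11.11 in control, from 10.15 to 11.06 at day 2 and from 9.93 to 11.07 at day 5, and differed from control by 0.15 ± 0.21 and -0.09 ± 0.21 (adjusted p = 0.687 and 0.843). The other 4 oligos were lower by 0.70 to 0.73 at day 2 and by 0.60 to 0.90 at day 5, each past the threshold, with adjusted p from 0.000209 to 0.0114. The 95% intervals of the brightest oligo, -0.28 to 0.58 at day 2 and -0.52 to 0.35 at day 5, leave room for a change in either direction. Its sequence is shown next because it did not pass, and the *Rgs3* domain oligo above is 1 of the 4 that did.
Rgs3 brightest: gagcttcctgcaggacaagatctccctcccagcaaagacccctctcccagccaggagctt
It lies between the falling oligos, of which 1 is placed at chr4:62320758-62320817 and 3 between 62361410 and 62363200. A pair of these spans 678 and 919 bases of genome with 60 bases of oligo and so crosses introns. Per sample, the brightest oligo minus the mean of the other 4 was 1.35 ± 0.72 (SD, n = 8) in control, 2.22 ± 0.44 at day 2 and 1.94 ± 0.50 at day 5. The rise was 0.87 at day 2 (exact two-sided permutation test, p = 0.012) and 0.59 at day 5 (p = 0.0777, exact permutation test), a test chosen after the values were seen. Over all slides the ranges overlapped, with control from 0.34 to 2.22, day 2 from 1.49 to 2.93 and day 5 from 1.33 to 2.89. The difference between the oligos also varied by slide, with controls from 0.34 to 0.92 on slide 1, from 1.31 to 1.53 on slide 2 and from 1.93 to 2.22 on slide 3. Within each slide all day 2 and all day 5 samples lay above the controls. With labels permuted within slides the rise was 0.68 at day 2 (exact two-sided permutation test, 1200 arrangements, p = 0.000833) and 0.75 at day 5 (2100 arrangements, p = 0.000476, exact permutation test), each p being the smallest that its arrangements allow. The within-slide test was also chosen after the values were seen. Since all lesion samples lay above the controls within slides, its p-values were bound to be the smallest and add nothing to that separation.

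**Figure D2:**
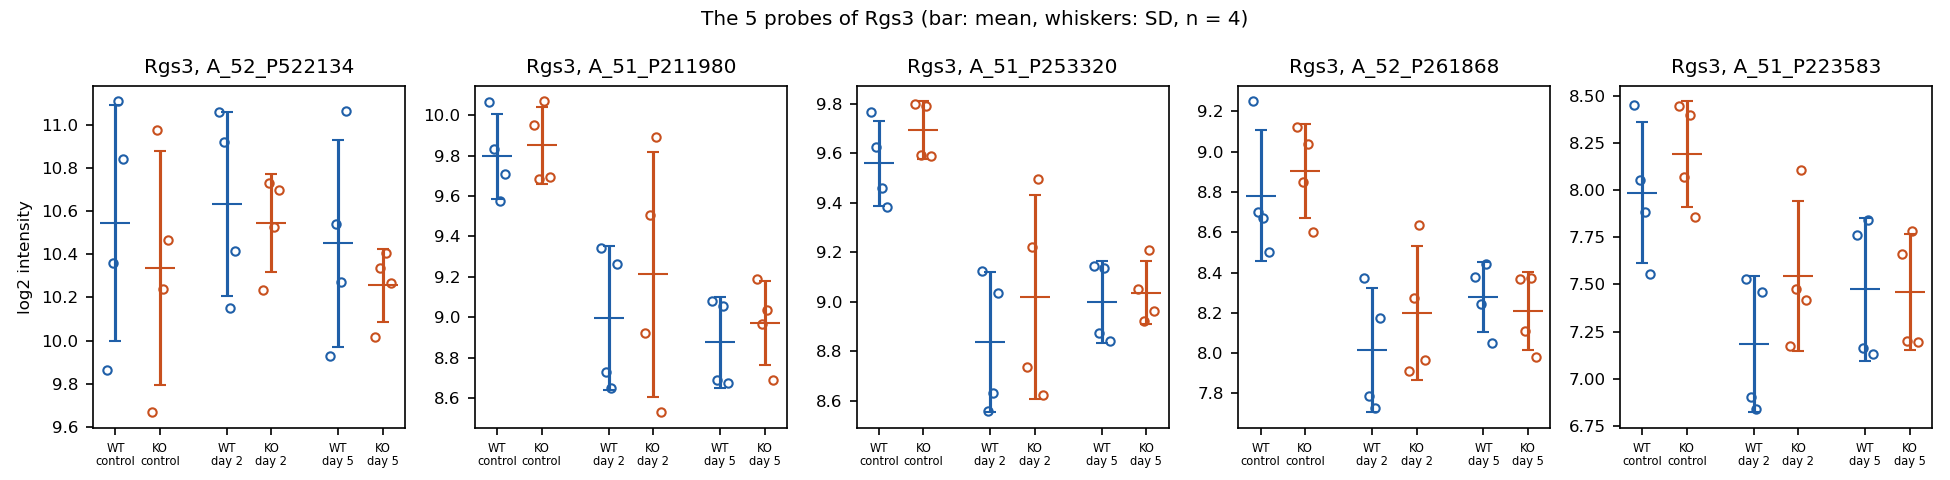
Log2 intensity of the 5 Rgs3 probes in the 24 samples, WT in blue and KO in orange, with the mean and SD of each group of 4. The leftmost probe did not pass at either day, while the other 4 are lower by 0.60 to 0.90 at day 5.

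For *Rgs2* and *Rgs16* neither day differed from control past the threshold. *Rgs2*, which prefers Gq, ranged from 9.70 to 10.10 in control, from 9.45 to 10.15 at day 2 and from 9.95 to 10.25 at day 5. Its differences were -0.11 ± 0.09 at day 2 (adjusted p = 0.455) and 0.22 ± 0.09 at day 5 (adjusted p = 0.101), with 0.33 ± 0.09 between the days (adjusted p = 0.0549). An F test over both days did pass for *Rgs2* (limma, adjusted p = 0.0278), as it did for 7 of the 10 members and 26.3% of all genes, but not for *Rgs16* (adjusted p = 0.496). *Rgs2* had a further probe well above background in 22 samples and 1 in none, and neither passed. *Rgs16*, an R4 gene 47.5 kb from *Rgs8*, gave 0.16 ± 0.13 at day 2 and -0.04 ± 0.13 at day 5 (95% interval -0.32 to 0.24 at day 5), so that of these neighbors *Rgs8* fell and *Rgs16* did not pass.

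Within genotypes fewer genes passed, since each comparison rests on 4 samples a group. In WT *Rgs10* and *Rgs19* passed at day 2 and *Rgs5*, *Rgs8*, *Rgs10* and *Rgs19* at day 5, where 11.2 and 13.9% of all genes passed. In KO *Rgs19* passed at day 2 and *Rgs5*, *Rgs8*, *Rgs10*, *Rgs17* and *Rgs19* at day 5, where 11.9 and 12.8% of all genes passed. The comparison of KO with WT asked whether loss of NFIL3 changed these responses. None of the 10 genes differed between genotypes in limma in control, at day 2 or at day 5, nor in the time by genotype interaction, where 0% of all genes passed in control, 0.0146% at day 2, 0.0109% at day 5 and 0% for the interaction. In control the deleted gene *Nfil3* was thus not called either, although it read 8.44 to 9.03 in WT and 2.94 to 7.59 in KO. A gene that did not pass may therefore still differ between genotypes. No member had an unadjusted p below 0.05 in any of the 3 comparisons. Of all 27398 genes only 466, 1058 and 641 did, so that none among 10 does not set the members apart. The differences ranged from -0.21 to 0.34. The highest, of *Rgs8* at day 2, was 0.69 without KO day 2 replicate 1 (95% interval 0.05 to 1.33, unadjusted p = 0.0352, limma adjusted p = 0.995) and 0.53 without WT day 2 replicate 1, and no member passed in these fits. The intervals were widest for *Rgs8*, from -0.36 to 1.04 at day 2. For *Rgs10* at day 5 the difference was 0.00 (95% interval -0.40 to 0.40) and for *Rgs19* -0.11 (-0.33 to 0.11). A *Rgs8* difference of 0.34 at day 2 stood beside the 2 KO samples at control level noted above.

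**Figure D3:**
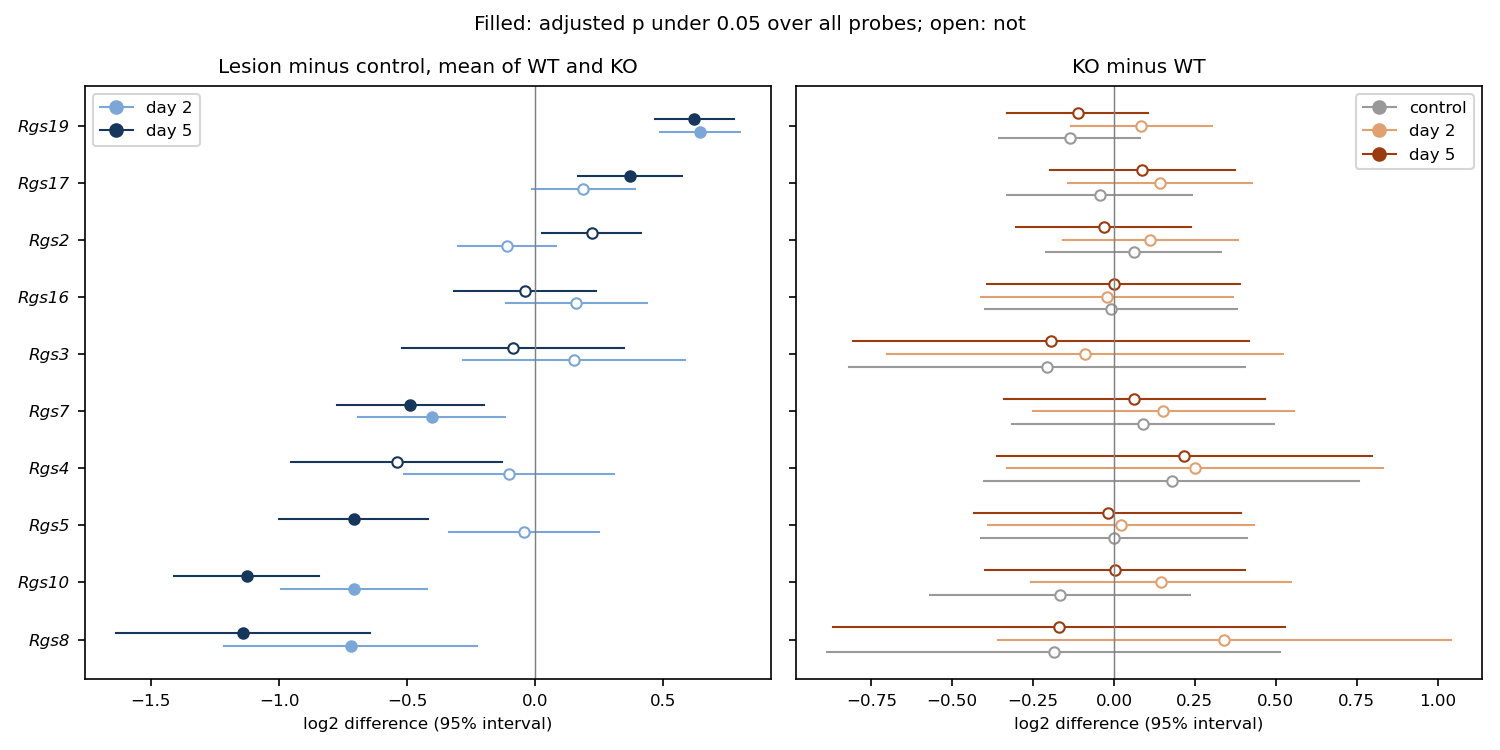
Log2 differences of the brightest probe of each RGS gene with 95% intervals, on the left day 2 and day 5 against control over both genotypes and on the right KO minus WT in control, at day 2 and at day 5. Filled points passed at an adjusted p below 0.05, which 4 genes did at day 2, 6 at day 5 and none between genotypes.

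Groups were spread unevenly over the slides. At day 5 the KO samples lay on slides 1 and 2 only and the WT samples on slides 1 and 3 only. The KO minus WT differences at day 5 are thus partly mixed with slide. Slides also held unequal numbers of day 2 samples. Slide 1 held 3 controls and only 1 day 2 sample, KO day 2 replicate 3, and there the day 2 difference was -0.08 for *Rgs10*, 0.15 for *Rgs8* and 0.01 for *Rgs7*, but 0.56 for *Rgs19*. On slides 2 and 3 it was -0.62 and -1.01 for *Rgs10*, -0.79 and -0.82 for *Rgs8*, and -0.34 and -0.40 for *Rgs7*. At day 5 the differences within slides 1, 2 and 3 were -0.998, -1.17 and -1.25 for *Rgs10*, -1.22, -1.17 and -0.87 for *Rgs8*, -0.92, -0.51 and -0.70 for *Rgs5*, and 0.59, 0.59 and 0.70 for *Rgs19*. When the 4 arrays that carried a control and a lesion sample together were left out, 4 of the 8 controls went with them. The day 5 count dropped from 6 to 3, with *Rgs5*, *Rgs10* and *Rgs19* passing. *Rgs8* was at -1.09 (limma adjusted p = 0.0501), *Rgs7* at -0.44 (adjusted p = 0.0855) and *Rgs17* at 0.37 (adjusted p = 0.149). With all samples these differences were -1.14, -0.49 and 0.37.

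Other genes of the pathway were taken from lists. Of 10 other RGS genes on the array, 3 were higher and 3 lower at day 5, and 2 higher and 2 lower at day 2. *Rgs20*, the third RZ gene, was higher by 1.96 ± 0.14 at day 2 and 1.64 ± 0.14 at day 5 (adjusted p = 2.03e-09 and 2.14e-08). *Rgs18*, known from blood cells, was higher by 1.15 ± 0.20 at day 5, and *Rgs6*, an R7 gene, lower by 0.96 ± 0.11. Of 5 partners of R7 proteins 2 were lower at day 5, among them *Rgs7bp*, which anchors R7 complexes to the membrane, at -1.17 ± 0.14 (adjusted p = 2.28e-06), and *Gpr179* at -0.89 ± 0.20, while *Gnb5* gave 0.21 ± 0.10 (adjusted p = 0.152).

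G protein subunits and other genes of the pathway were split as well. Of 5 Gi and Go alpha subunits 2 were lower at day 5, *Gnao1* by 0.77 ± 0.13 and *Gnai1* by 0.39 ± 0.07, and *Gnai3* was higher by 0.35 ± 0.07. Of 4 Gq subunits *Gnaq* was lower by 0.76 ± 0.11 (adjusted p = 2.65e-05), and of 4 Gs and G12 subunits *Gnal* was lower by 0.50 ± 0.13. Among 14 beta and gamma subunits 3 were higher and 2 lower, with the largest changes in *Gng8* (-1.03 ± 0.12), *Gnb3* (-0.83 ± 0.16) and *Gng2* (0.65 ± 0.08). Of 7 receptor kinases and arrestins, which desensitize receptors, 2 were higher and 3 lower, with *Adrbk2* at -1.01 ± 0.17, *Adrbk1* at -0.82 ± 0.16 and *Arrb1* at 0.72 ± 0.08. Of 8 GIRK channel and phospholipase C beta genes 3 were lower and 1 higher, with *Plcb3* at -1.16 ± 0.16, *Kcnj3* at -0.91 ± 0.15 and *Plcb2* at 0.63 ± 0.12. The *Plcb2* probe was dim, being well above background in 1 of 8 control and 7 of 8 day 5 samples, and that of *Rgs18* was so in 4 of 8 control and 8 of 8 day 5 samples. In all, 27 of the 57 genes of these lists on the array passed at day 5 (47.4%, beside 23.3% of all genes) and 23 at day 2 (40.4%, beside 22.3%). These shares are not like for like. Most listed genes were well above background in all 24 samples, against 53.2% of all genes, and no share among detected genes was counted. The lists were also written with earlier results of these data known.

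**Figure D4:**
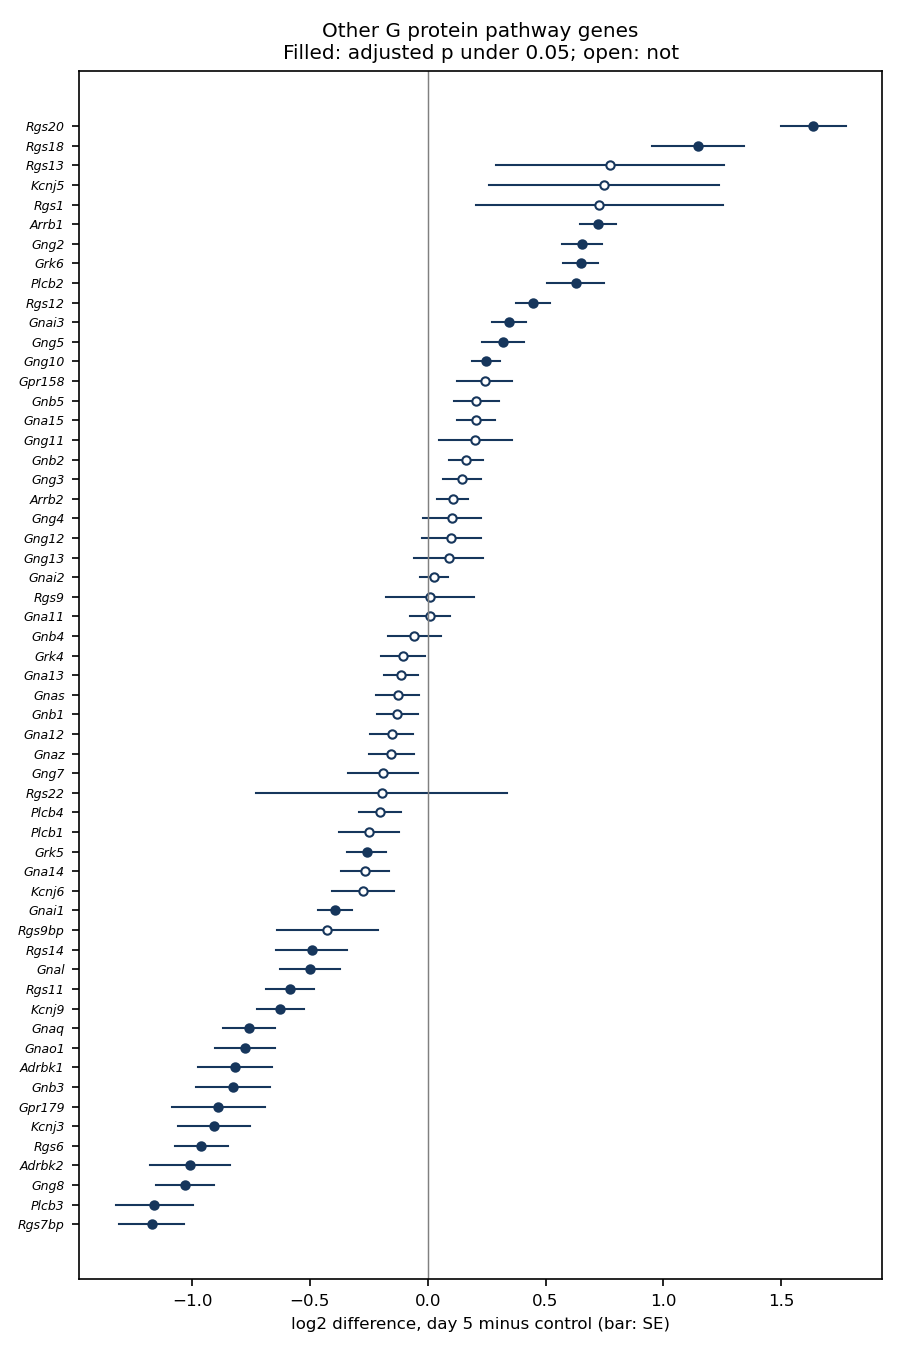
Log2 difference between day 5 and control for the other G protein pathway genes, with SE, sorted by size. Filled points passed at an adjusted p below 0.05, from Rgs7bp at -1.17 to Rgs20 at 1.64.

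Cell type markers moved with the lesion as well. Of 10 neuronal markers 7 were lower at day 2 and at day 5, with *Tubb3* higher at day 5, and their summed intensity ranged from 518900 to 652000 in control and from 410500 to 520300 at day 5. Such a sum weighs the brightest probes most, here those of *Nefl*, which was lower, and *Uchl1*, which did not pass. All 7 macrophage markers were higher at day 5 and 4 at day 2, with summed intensity from 1113 to 2148 in control and from 3794 to 5638 at day 5. Of 5 satellite glia markers 2 were higher and 1 lower at day 5. None of 4 skeletal muscle markers passed, but their summed intensity varied widely between samples, from 142.3 to 10560 within KO day 5. The part of any of these cell types in the RGS differences was not tested.

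The genes most like the 3 members with the smallest lesion p were sought among 14492 genes well above background in all samples. By Pearson's r over the 24 samples, which share the lesion and the arrays, these were *Isl2*, *Ctxn3* and *Prkcq* for *Rgs10* (each r = 0.969 after rounding), *Med22*, *Uck2* and *Mina* for *Rgs19* (r = 0.957, 0.956 and 0.953), and *Osmr*, *Tmem45b* and *Kif5b* for *Rgs5* (r = 0.865, 0.859 and 0.830).

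RefSeq start sites (GRCm38.p6) were given for all 10 members, 15 windows of 250 bases before to 50 after the start. They were searched on both strands for motifs of which each is given with the share of all 32851 such windows that hold it. These were the NFIL3 site TTANGTAA (2.32%), the cAMP response element TGACGTCA (1.79%) and the shorter TGACG contained in it (20.8%), the AP-1 site TGANTCA (7.81%) and the C/EBP site TTGCNNAA (10.8%). None of the member windows held the NFIL3 site or the full cAMP response element. The short element was found in *Rgs2*, which passed at neither day, in *Rgs8* and in *Rgs4*, the AP-1 site in *Rgs17*, and the C/EBP site in *Rgs3* and *Rgs4*, 213 and 217 bases before the start. Not all windows of *Rgs8* held the short element. For *Rgs17*, *Rgs8*, *Rgs4* and *Rgs2* the match closest to the start is shown. The motif shown is not the same in all of them, and a link between motif and direction of change was not tested. Capitals mark the match, the AP-1 site in *Rgs17* (chr10:5922489-5922548, minus strand) and the short element in *Rgs8* (chr1:153652965-153653024, plus strand), *Rgs4* (chr1:169747750-169747809, minus strand) and *Rgs2* (chr1:144004183-144004242, minus strand), read on the opposite strand in *Rgs8* and *Rgs4*.
Rgs17: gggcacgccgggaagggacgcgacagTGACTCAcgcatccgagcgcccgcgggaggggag
Rgs8: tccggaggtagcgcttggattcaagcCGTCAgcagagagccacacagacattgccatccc
Rgs4: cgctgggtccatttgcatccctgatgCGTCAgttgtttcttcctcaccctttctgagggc
Rgs2: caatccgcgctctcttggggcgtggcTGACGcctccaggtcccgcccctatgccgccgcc
A match is a run of letters and does not show binding, and the windows of *Rgs5*, *Rgs7*, *Rgs10*, *Rgs16* and *Rgs19* held none of the 5 motifs.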

How the data were processed

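The authors labeled DRG RNA with Cy3 or Cy5 and put 2 different samples on each of 12 Agilent 4x44K arrays. The authors deposited, for each spot, Feature Extraction foreground and background intensity values without normalization, used here as single channels. KO control replicate 4 was grouped by its title.

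Following the study's methods, limma's Edwards background correction and quantile normalization across channels were applied (mean foreground, median background, limma 3.58.1 in R 4.3.3). Outlier spots were left out (417 probe values) and spots of a probe were averaged. Values are log2 intensities. The model had a separate mean for each of the 6 groups and took in all 24 samples and 41174 non-control probes, with eBayes and Benjamini-Hochberg adjustment over all probes at 0.05. The brightest probe stood for a gene. Errors are SE of the fit unless SD is given, and intervals are 95%. The number of arrays limits the precision. Array annotation is mm9.

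The members and lists were chosen with earlier results of these data known. Named genes were the 10 members, *Nfil3*, up to 3 passing genes with the largest day 5 changes per pathway list, and 3 correlated genes for each of 3 members. Alternatives were other background corrections (none, normexp with offset 50, processed signals scaled to the 75th percentile), loess with Aquantile, median in place of mean foreground, outliers kept, a filter (well above background in 4 samples), averaged probes, dye, slide, replicate or array terms, an intensity trend, samples left out in turn and the 4 mixed arrays left out. The fit was tested on simulated data with known changes. Recovery was lower for probes near background than a first criterion had required, and the criteria were then changed to bias, false calls and recovery rising with the size of the change.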

Additional observations from a re-analysis of the deposited data

Results flagged for a closer look

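Among 60 groups of 4 samples (10 genes, 6 groups) 1 had a sample far from the others: *Rgs16* in KO day 5 replicate 4 read 6.82, while the other 3 read 6.54 to 6.58. Chance alone flags about 1 in 20 groups, or 3 of 60.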

How the results depend on the processing

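The KO minus WT count stayed at 0 under all alternatives. The day 2 count of 4 was 2 with array as a random block, 3 with slide as a block or without the 4 mixed arrays, and 5 with probes averaged or by any probe. The day 5 count of 6 was 3 without the 4 mixed arrays, 7 with no or normexp background correction, processed signals, the filter, slide or array terms or an intensity trend, and 8 with probes averaged, dye, the replicate block or by any probe. The mixed arrays held 4 of the 8 controls, which that fit therefore lacked. *Rgs4* at day 5 passed under 17 of 38 alternatives. The count between day 5 and day 2, 1 in the report, was 2 with no or normexp background correction, median foreground, the filter, dye, slide or replicate block or an intensity trend, 3 with array as a random block and 0 without the mixed arrays. With 1 sample left out, the counts ranged from 2 to 4 at day 2, from 6 to 8 at day 5 and from 1 to 2 between the days. Pathway genes passing at day 5 then ranged from 26 to 28, and from 21 without the mixed arrays to 31 with processed signals under the other alternatives. The *Rgs3* oligo difference at day 5 was 0.75 within slides. Signs turned for values that had not passed: *Rgs3* at day 2 (-0.55, past the threshold) and *Rgs5* at day 2 (0.00528) and *Rgs2* at day 5 (-0.0628) with probes averaged, *Rgs4* (0.0251) and *Rgs5* (0.0702) at day 2 and *Rgs3* at day 5 (0.0114) with slide as a block, and *Rgs16* at day 5 with processed signals (0.0104) or array as a random block (0.0085). Within slide 1 *Rgs7* (0.0067) and *Rgs8* (0.15) at day 2 had passed overall and turned. With 1 sample left out, signs also turned for *Rgs4* (-0.18 to 0.0248) and *Rgs5* (-0.11 to 0.0312) at day 2 and *Rgs3* (-0.20 to 0.0192) and *Rgs16* (-0.0993 to 0.0263) at day 5. The causes were not tested. Samples with the same replicate number share the dye. Their deviations correlated from -0.06 to 0.21 (median 0.07), with 13 of 60 pairs above 0.1. Pairs of the same dye but another number gave -0.11 to 0.20 (median 0.047), also with 13 of 60 above 0.1. Pairs of different dyes had a median of -0.07, with 2 of 120 above 0.1. Of 24 samples 18 were closest to their own number, and what else such samples share was not tested. The replicate block raised the count between the days to 2 and brought *Rgs2* (0.22, adjusted p = 0.0333) and *Rgs4* (-0.54, adjusted p = 0.0249) at day 5 past the threshold. *Rgs2* at day 5 also passed with dye (adjusted p = 0.0359) and without WT day 2 replicate 3 (adjusted p = 0.043).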
